A study of Oryza sativa Japonica Group with 3 samples.

Results

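The Aux/IAA proteins are the repressors of the plant auxin response. Rice has 31 named loci of this family, OsIAA1 to OsIAA31, and these 31, taken by locus ID in the order of that numbering, were followed here in imbibing seeds. Values were present for 30 of them, out of 55986 loci in all. OsIAA5 was not analysed here. The names follow the published numbering of the family. Among its protein-coding genes, a RefSeq gene table lists 28 of the 31 names, each for 1 gene on the chromosome that the locus ID states. It lists no protein-coding gene under the names OsIAA22, OsIAA27 or OsIAA28. The names OsIAA1, OsIAA8 and OsIAA20 are also listed there for another gene, on a different chromosome.

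RNA came from whole seeds of Jiucaiqing, a landrace of japonica rice, at 3 times: 0 h (dry seeds), 24 h (imbibed seeds) and 48 h (germinated seeds) in distilled water at 30 °C. All seeds share the genotype and the growth conditions, and time in water is the difference between the groups. Each time point is 1 library, in which 3 biological replicates were combined, so there is no replicate error, no test was run and no p-value is given. Abundance is in FPKM, fragments per kilobase of transcript for each 1000000 mapped fragments, summed over the isoforms of a locus.

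Without auxin, an Aux/IAA protein binds an auxin response factor (ARF) sitting at the promoter of an auxin-responsive gene and recruits a co-repressor that keeps the gene silent. Auxin joins the Aux/IAA protein to an F-box receptor of the TIR1/AFB family, the repressor is degraded, and the ARF is released. Many Aux/IAA genes are themselves early targets of auxin, which makes the pathway a feedback loop. Transcript levels show neither the amount of repressor protein nor the amount of auxin.

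The labelled tissue was checked against 6 loci of a seed marker list, whose roles rest on knowledge of rice and not on the files. All 6 were present in some library. The oleosin locus LOC_Os04g46200 was at 3109, 210.3 and 13.9 FPKM at 0, 24 and 48 h, and the alpha-amylase locus LOC_Os02g52710 was at 0.09, 21.5 and 209.8 FPKM. The glutelin locus LOC_Os01g55690 was at 116.4, 71.1 and 26.5 FPKM. In whole seeds, fewer cells of a kind and less RNA per cell cannot be told apart. The part that a changing mix of embryo and endosperm RNA has in the values below was not tested. Over all loci the FPKM summed to 881252, 580571 and 535327 at 0, 24 and 48 h, and the number of sequenced fragments is unknown, so no counting error can be given for a low value.

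More members reached 1 FPKM at each later time. In the dry seed 13 of the 30 loci reached 1 FPKM, at 24 h 17 did, and at 48 h 24 did. Over all loci the share at this level was 29.2%, 30.8% and 33.7% in the same order. A further 12, 10 and 4 members lay above 0 but under 1 FPKM at 0, 24 and 48 h. The counts depend on the level: at 0.5 FPKM they were 17, 18 and 24, and at 2 FPKM 13, 16 and 21. The share of all loci was not taken at those levels. The 13 loci of the dry seed stayed at or over 1 FPKM at both later times, as did 86.2% of all loci that reached it in the dry seed. No member was lost: none that reached 1 FPKM in the dry seed was under it at 48 h. Of the 11 members added by 48 h, 4 had already been added at 24 h, namely OsIAA7, OsIAA12, OsIAA20 and OsIAA31. The other 7 (OsIAA2, OsIAA6, OsIAA11, OsIAA14, OsIAA23, OsIAA25 and OsIAA27) passed at 48 h alone and lay between 1.29 and 4.16 FPKM there. Values close to the limit were 0.99 FPKM for OsIAA20 at 0 h and 0.96 FPKM for OsIAA11 at 24 h, just outside. Just inside at 48 h were OsIAA25 at 1.29 FPKM and OsIAA4 at 1.34 FPKM. OsIAA4 was at 11.5 FPKM in the dry seed, so that no member was lost rests on a value near the limit.

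Under 1 FPKM at all times were 6 members: OsIAA8, OsIAA16, OsIAA22, OsIAA26, OsIAA28 and OsIAA29. OsIAA8 was at 0.09, 0.05 and 0.29 FPKM, OsIAA16 at 0.00, 0.22 and 0.19 FPKM, and OsIAA26 at 0.09, 0.20 and 0.32 FPKM, the highest value of these 6. OsIAA28 was listed at 0 until 48 h, where it was at 0.05 FPKM. OsIAA22 and OsIAA29 were listed at 0 in all 3 libraries. A listed 0 in estimated values can be a failed estimate, so it does not show that a transcript was absent.

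**Figure D1:**
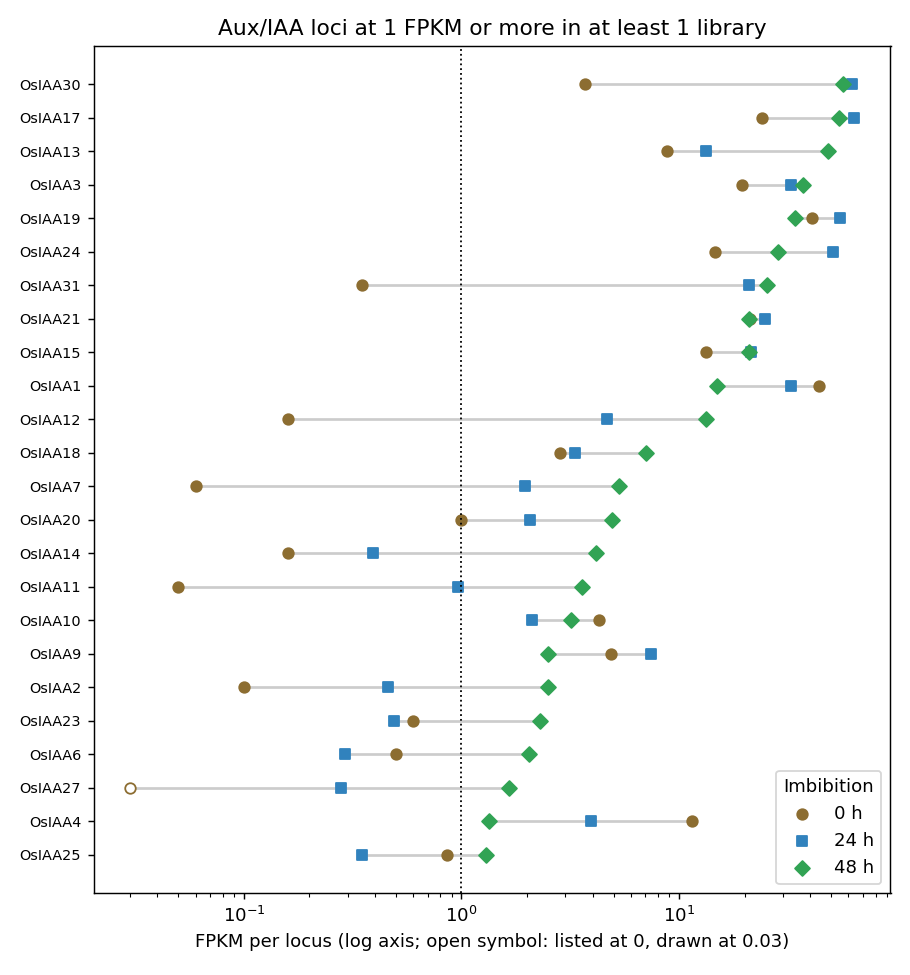
Level of each of the 24 Aux/IAA loci that reached 1 FPKM in some library, as FPKM on a log axis, with 1 symbol per library (circle 0 h, square 24 h, diamond 48 h) and the dotted line at 1 FPKM. Loci are ordered by their level at 48 h, from OsIAA30 at 56.7 FPKM down to OsIAA25 at 1.29 FPKM. The open circle of OsIAA27 marks a listed 0.

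The family total grew mainly on the first day. Summed over the 30 loci, Aux/IAA transcripts made up 217.5, 407.5 and 397.8 FPKM at 0, 24 and 48 h. For each 1000000 FPKM in the library, that was 247, 702 and 743 FPKM. The total was held by few loci, since the 5 most abundant members made up 68.8%, 65.1% and 58.1% of it at 0, 24 and 48 h. These 5 were OsIAA1, OsIAA19, OsIAA17, OsIAA21 and OsIAA3 in the dry seed. At 24 h they were OsIAA17, OsIAA30, OsIAA19, OsIAA24 and OsIAA1, and at 48 h OsIAA30, OsIAA17, OsIAA13, OsIAA3 and OsIAA19. OsIAA17 and OsIAA19 were thus among the 5 highest at every time. Over the 30 members the median level was 0.730, 2.09 and 3.87 FPKM at 0, 24 and 48 h.

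**Figure D2:**
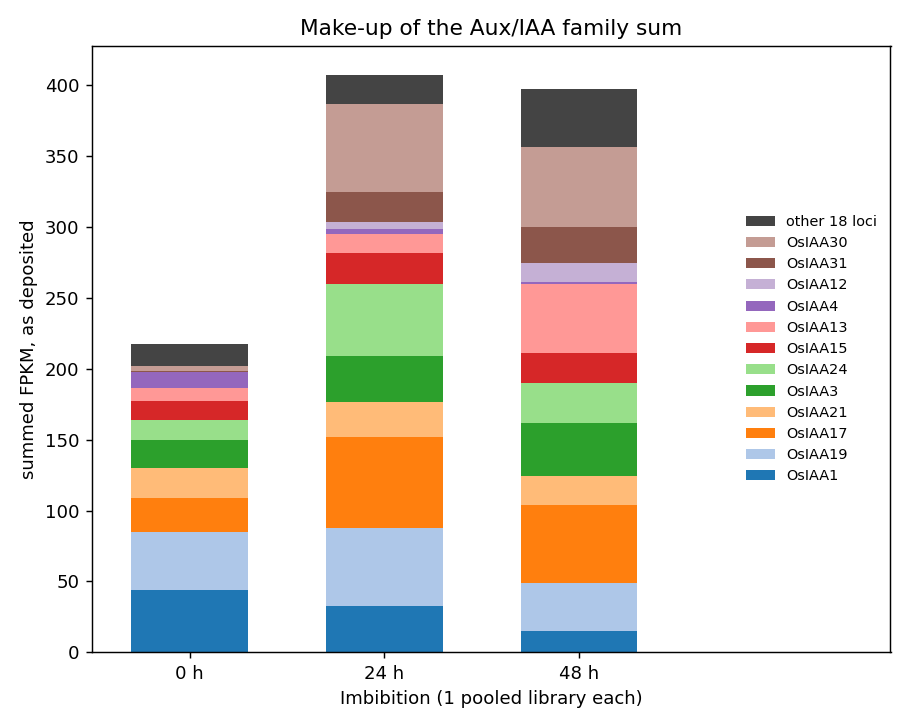
Summed FPKM of the 30 Aux/IAA loci in each library (bars; 1 pooled library per time), split into the 12 loci that reached 10 FPKM at some time and the other 18 together. OsIAA1 and OsIAA4 take a smaller part at each later time, while OsIAA30 and OsIAA31 together hold 4.04, 83.5 and 82.0 FPKM at 0, 24 and 48 h.

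Differences were taken on the scale log2(FPKM + 1), which understates those of low loci, and a locus was called higher or lower where it differed by at least 2-fold on that scale. The call was made for the 20915 loci, 24 of them Aux/IAA, that reached 1 FPKM in some library. The first day stands for 24 h against 0 h, the second for 48 h against 24 h, and the whole course for 48 h against 0 h. On the first day 6 of these 24 members were higher and 1 was lower, beside 17.7% and 15.4% of all loci. On the second day 9 were higher and 3 lower, beside 13.8% and 10.9%. Over the whole course 14 were higher and 2 lower, beside 27.5% and 20.4%. The median log2 difference of the 24 was 0.47, 0.59 and 1.05 in these comparisons, and that of all loci 0.06, 0.02 and 0.18. These 3 comparisons share libraries and are not independent of each other.

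The 24 are not the whole family, and 7 of them are among the 24 through their 48 h value alone, so they lie lower at the other times by selection. Among the 13 members at or over 1 FPKM in both libraries compared, 4 were higher (OsIAA13, OsIAA17, OsIAA18 and OsIAA30) and 2 lower (OsIAA1 and OsIAA4) at 48 h than at 0 h. All loci that met the same condition were higher in 17.9% and lower in 22.3% of cases. On the first day the condition left 3 higher and 1 lower of 13 members, beside 14.9% and 16.8%. On the second day it left 3 higher and 3 lower of 17 members, beside 9.53% and 12.2%. Of the 14 members higher over the whole course, 10 were thus under 1 FPKM in the dry seed.

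A larger pseudocount of 5 FPKM, which weighs low values less, gave 6 members higher and 2 lower over the whole course. The calls also depend on how libraries are scaled. With each library rescaled to the same sum, the median log2 difference of all loci moved to 0.45, 0.14 and 0.75, and that of the Aux/IAA loci to 0.98, 0.71 and 1.61. The members then split 12 higher to 0 lower on the first day, 11 to 2 on the second day and 17 to 1 over the whole course. Scaling by median-of-ratios factors moved the split to 10 higher and 2 lower on the second day and left it as it was in the other comparisons. The share of all loci past 2-fold was not taken at these settings, so these counts have no background beside them.

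The largest differences on the first day, on the log2(FPKM + 1) scale, were those of OsIAA30 and OsIAA31. Their IDs are adjacent on chromosome 12, and the RefSeq table has no protein-coding gene between them. OsIAA30 (LOC_Os12g40890) was at 3.69, 62.5 and 56.7 FPKM at 0, 24 and 48 h. OsIAA31 (LOC_Os12g40900) was at 0.35, 21.0 and 25.3 FPKM. Both were low in the dry seed alone and changed little after 24 h: the log2 differences were 3.76 and 4.03 on the first day, and -0.14 and 0.26 on the second day. The order depends on the scale, since with a pseudocount of 0.1 FPKM the first-day difference of OsIAA12 was 4.19 and that of OsIAA30 4.05. Over the whole course, with the pseudocount of 1 FPKM, that of OsIAA12 was 3.63 and that of OsIAA30 3.62. OsIAA30 and OsIAA31 together were 1.86%, 20.5% and 20.6% of the family total at 0, 24 and 48 h. How the deposited estimates divided reads between similar members is not known, so single values of neighbouring copies are less certain than their sum, which was 4.04, 83.5 and 82.0 FPKM.

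Low in the dry seed and higher at both steps were OsIAA7 and OsIAA12, the 2 members at least 2-fold higher at each step, beside 2.44% of all loci. OsIAA12 (LOC_Os03g43410) was at 0.16, 4.64 and 13.4 FPKM at 0, 24 and 48 h, with log2 differences of 2.28 and then 1.35. OsIAA7 (LOC_Os02g13520) was at 0.06, 1.95 and 5.31 FPKM, with log2 differences of 1.48 and 1.10. With a pseudocount of 5 FPKM neither locus passed 2-fold at either step. The differences were then 0.90 and 0.93 for OsIAA12 and 0.46 and 0.57 for OsIAA7. Over the whole course both still passed it, at 1.83 and 1.03. OsIAA11 (LOC_Os03g43400), whose stabilised form blocks lateral root formation in a rice mutant, lies next to OsIAA12 on chromosome 3. It was at 0.05, 0.96 and 3.58 FPKM, a course of the same order at a lower level, with log2 differences of 0.90 and 1.22. The third run of adjacent IDs, OsIAA27 to OsIAA29 on chromosome 11, was near 0, with a sum of 0.00, 0.28 and 1.71 FPKM at 0, 24 and 48 h, of which OsIAA27 (LOC_Os11g11410) made up 0.00, 0.28 and 1.66 FPKM. OsIAA27 was called higher on the second day, with a log2 difference of 1.06, and over the whole course. Since it was listed at 0 in the dry seed, no fold is given for the whole course.

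OsIAA17 and OsIAA24 were higher at 24 h from a level that was already well over 1 FPKM. OsIAA17 (LOC_Os05g14180) was at 24.0, 63.8 and 54.6 FPKM, and was the most abundant member at 24 h. Its log2 difference was 1.38 on the first day and -0.22 on the second day. OsIAA24 (LOC_Os07g08460) was at 14.7, 50.9 and 28.6 FPKM, highest at 24 h, with log2 differences of 1.73 and -0.81. With OsIAA7, OsIAA12, OsIAA30 and OsIAA31 these make up the 6 members called higher at 24 h.

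After 24 h the largest gain in FPKM was that of OsIAA13 (LOC_Os03g53150), known from a rice mutant in which the stabilised protein reduces lateral roots. OsIAA13 was at 8.78, 13.3 and 48.5 FPKM. The first step had a log2 difference of 0.55 and the second of 1.79, and at 48 h it was the third most abundant member after OsIAA30 and OsIAA17. OsIAA14 (LOC_Os03g58350) went the same way at a lower level, at 0.16, 0.39 and 4.16 FPKM, with a log2 difference of 1.89 on the second day. That of OsIAA2 (LOC_Os01g09450) was 1.26, at 0.10, 0.46 and 2.49 FPKM.

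OsIAA6 and OsIAA23 passed 1 FPKM at 48 h after lower values at 24 h than in the dry seed. OsIAA6 (LOC_Os01g53880), whose overexpression raises drought tolerance in rice, was at 0.50, 0.29 and 2.05 FPKM. OsIAA23 (LOC_Os06g39590), which in rice acts in the upkeep of the quiescent centre of the root tip, was at 0.60, 0.49 and 2.30 FPKM. Their log2 differences on the second day were 1.24 and 1.15. A peak at 48 h, at least 2-fold over both other libraries, was found for 9 members in all, namely OsIAA2, OsIAA6, OsIAA7, OsIAA11, OsIAA12, OsIAA13, OsIAA14, OsIAA23 and OsIAA27, beside 11.0% of all loci. Of these 9, only OsIAA12 and OsIAA13 reached 10 FPKM. OsIAA2, OsIAA6, OsIAA11, OsIAA14, OsIAA23 and OsIAA27 passed 1 FPKM at 48 h alone, and that selection favours a peak there. With a filter of 5 FPKM 3 members had this peak, and with a pseudocount of 5 FPKM 1 did. The share of all loci was not taken at these settings. No member had a peak at 24 h or the reverse, a dip, at that time, beside 2.60% and 1.24% of all loci. A dip at 0 h was found for 5 members (OsIAA7, OsIAA12, OsIAA17, OsIAA30 and OsIAA31), beside 13.4%.

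Called higher over the whole course without passing 2-fold at either step were OsIAA18 and OsIAA20. OsIAA18 (LOC_Os05g44810) was at 2.85, 3.34 and 7.05 FPKM and OsIAA20 (LOC_Os06g07040) at 0.99, 2.07 and 4.91 FPKM. Their log2 differences over the whole course were 1.06 and 1.57.

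**Figure D3:**
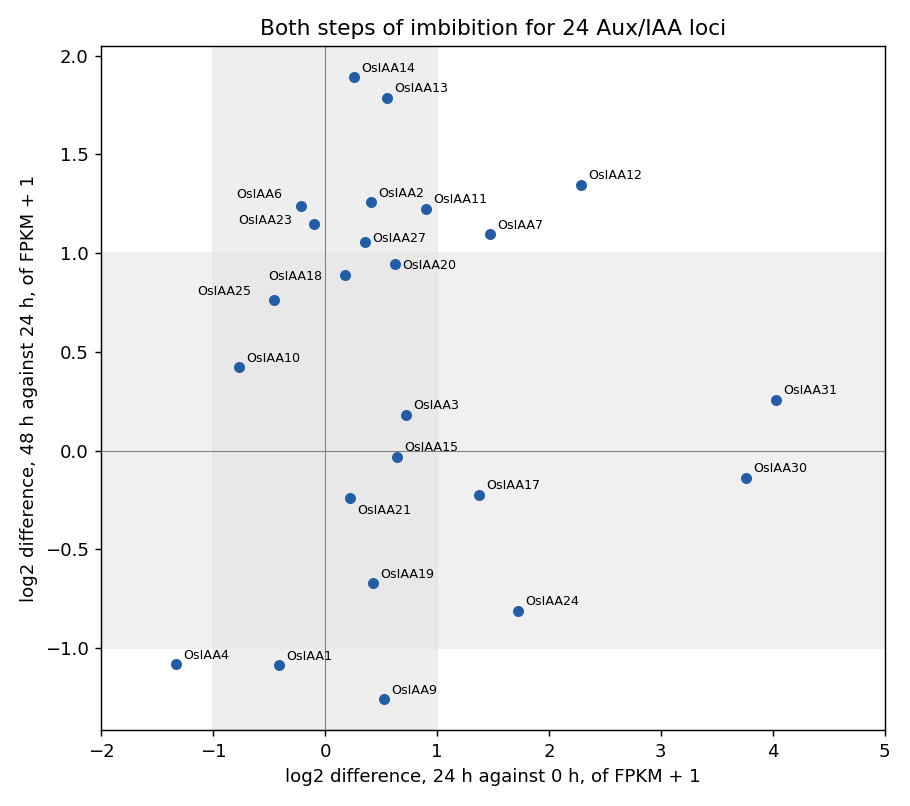
Log2 difference of FPKM + 1 on the first day (24 h against 0 h, horizontal axis) and the second (48 h against 24 h, vertical axis), 1 point per Aux/IAA locus for 24 loci. Shaded bands mark differences under 2-fold. OsIAA30 and OsIAA31 lie far right near 0 on the vertical axis, OsIAA13 and OsIAA14 lie at the top inside the vertical band, and OsIAA4 lies past 2-fold downwards on both axes.

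Against the majority, OsIAA4 and OsIAA1 were at least 2-fold lower at 48 h than in the dry seed. In the values as deposited, OsIAA9, OsIAA10, OsIAA19 and OsIAA21 were lower there too, by less than 2-fold. OsIAA4 (LOC_Os01g18360), whose overexpression in rice gives short plants with spreading tillers, was at 11.5, 3.95 and 1.34 FPKM at 0, 24 and 48 h. It was the only member at least 2-fold lower at both steps, with log2 differences of -1.34 and -1.08, and the only one with a peak in the dry seed, a profile of 12.3% of all loci. With OsIAA1 it also had a dip at 48 h, beside 6.87%. OsIAA1 (LOC_Os01g08320), whose overexpression makes rice roots less sensitive to auxin, was the most abundant member of the dry seed. It was at 44.0, 32.8 and 14.9 FPKM, with a log2 difference of -0.41 on the first day, -1.09 on the second day and -1.50 over the whole course. With libraries rescaled to the same sum, the difference of OsIAA1 over the whole course was -0.81, under 2-fold, and that of OsIAA4 at the first step was -0.81. The uncalled first-day difference of OsIAA1 then turned positive, at 0.17. On the second day, OsIAA1 was under 2-fold under each of 4 rescalings (the same sum with and without the most abundant locus, a trimmed mean of the log ratios, and median-of-ratios scaling), at -0.826 to -0.999.

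OsIAA9 (LOC_Os02g56120) was the third member lower at 48 h than at 24 h. It was at 4.84, 7.40 and 2.51 FPKM, with a log2 difference of -1.26 for that step. Its difference over the whole course was -0.73, or -1.13 with its most abundant isoform alone. That difference was -0.18 with the same sum per library and 0.01 with the most abundant locus left out of the sum. OsIAA10 (LOC_Os02g57250), a rice protein that a viral protein is known to shield from degradation, was at 4.30, 2.11 and 3.17 FPKM. Its log2 differences of -0.77 and 0.42 were under 2-fold. Over the whole course the difference of OsIAA10 was -0.35, and it turned positive, at 0.22, with the same sum per library. OsIAA25 (LOC_Os08g01780) was lowest at 24 h as well, at 0.86, 0.35 and 1.29 FPKM.

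Abundant members under 2-fold in each comparison completed the family. OsIAA21 (LOC_Os06g22870) was at 21.2, 24.9 and 20.9 FPKM, with a log2 difference of -0.02 over the whole course. OsIAA19 (LOC_Os05g48590) was at 40.8, 55.1 and 34.2 FPKM, a difference of -0.25, and OsIAA15 (LOC_Os05g08570) was at 13.3, 21.4 and 20.9 FPKM, a difference of 0.61. OsIAA3 (LOC_Os01g13030) was at 19.5, 32.7 and 37.2 FPKM, a difference of 0.90. With OsIAA10 and OsIAA25 these are the 6 members past 2-fold in no comparison, beside 41.8% of all loci. The values of the 4 abundant ones depend on scaling: with the same sum per library, OsIAA3, OsIAA15 and OsIAA19 were past 2-fold upwards on the first day, with log2 differences of 1.29, 1.21 and 1.01. Over the whole course OsIAA3 and OsIAA15 then passed it too, at 1.59 and 1.29, while OsIAA19 and OsIAA21 turned positive, at 0.45 and 0.66, under 2-fold.

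Isoforms were listed separately, and most members kept the same main one. Of the 24 members, 15 have at least 2 listed isoforms, and in 10 of these the same isoform was the most abundant at all times. The other 5 were OsIAA4, OsIAA6, OsIAA15, OsIAA23 and OsIAA27. Isoform 2 of OsIAA4 held 6.92 FPKM of the dry seed's value and was listed at 0 later, whereas isoform 1 was at 4.58, 3.95 and 1.34 FPKM. With isoform 1 alone, the difference on the first day was -0.17 and no longer passed 2-fold. In OsIAA23, isoform 1 was at 0.05, 0.00 and 1.39 FPKM and isoform 2 at 0.55, 0.49 and 0.91 FPKM. Isoform 2 alone, the higher of both on average, differed by 0.36 on the second day and 0.30 over the whole course, under 2-fold. Likewise the second-day differences of OsIAA2 and OsIAA27, at 0.79 and 0.55, and the whole-course difference of OsIAA27, at 0.83, were under 2-fold with 1 isoform. OsIAA15 was split between isoform 6 at 7.52, 9.61 and 8.62 FPKM and isoform 2 at 3.54, 9.84 and 8.16 FPKM. In OsIAA6, isoform 7 was listed at 0 until 48 h, where it was at 1.55 FPKM of the 2.05 FPKM of the locus. How shared reads were divided between isoforms cannot be seen in these values.

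Other loci of the auxin response were described as 3 lists, for the ARF factors, the TIR1/AFB receptors and the GH3 family. The GH3 enzymes join auxin or jasmonate to amino acids. Neither the files nor the reference table pair these locus IDs with names, and which loci belong to each list rests on knowledge of the rice families, so single loci are given by ID. Of the 25 ARF loci 23 reached 1 FPKM in some library, of the 5 receptor loci all 5, and of the 13 GH3 loci 10.

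The receptor list had its highest sum at 24 h. It was 109.6, 316.3 and 176.0 FPKM at 0, 24 and 48 h. On the first day 4 of the 5 loci were higher and 0 lower, beside 17.7% and 15.4% of all loci. On the second day 0 were higher and 1 lower, beside 13.8% and 10.9%, with all 5 differences below 0. LOC_Os05g05800 was at 26.5, 104.1 and 43.9 FPKM, with log2 differences of 1.94 and -1.23. LOC_Os03g08850 was at 3.52, 24.6 and 17.2 FPKM, with log2 differences of 2.50 and -0.49. It was the 1 locus called higher over the whole course, beside 27.5% of all loci. With the same sum per library, 4 of the receptor loci were called so. The median log2 difference of all loci over the whole course was then 0.75 in place of 0.18, and their share past 2-fold was not taken. LOC_Os04g32460 was at 36.7, 91.6 and 57.4 FPKM, with log2 differences of 1.30 and -0.66.

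Among the 23 ARF loci, 7 were higher and 2 lower on the first day, beside 17.7% and 15.4% of all loci. On the second day 1 was higher and 0 lower, beside 13.8% and 10.9%. Over the whole course 11 were higher and 2 lower, beside 27.5% and 20.4%. LOC_Os04g57610, the locus higher at both steps, was at 2.55, 7.05 and 16.2 FPKM, and LOC_Os02g41800 was at 0.15, 3.42 and 5.97 FPKM. LOC_Os11g32110, the third that the size rule names, was at 9.17, 39.7 and 30.6 FPKM. The loci called lower, named here after their values were seen, were LOC_Os01g48060, at 21.2, 7.12 and 6.18 FPKM, and LOC_Os12g29520, at 20.5, 5.15 and 6.77 FPKM. The median log2 difference of the ARF list was 0.67, 0.23 and 0.91 on the first day, the second day and over the whole course. That of all loci was 0.06, 0.02 and 0.18. With the same sum per library, 12 ARF loci were higher and 1 lower on the first day, and 18 and 0 over the whole course. A pseudocount of 5 FPKM gave 6 higher and 2 lower over the whole course. Requiring 1 FPKM in both libraries gave 7 higher and 2 lower, beside 17.9% and 22.3% of all loci that met this condition. In the dry seed 18 of the ARF loci reached 1 FPKM.

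In the GH3 list, 7 of 10 loci were higher and 0 lower on the first day, beside 17.7% and 15.4% of all loci. On the second day 1 was higher and 1 lower, beside 13.8% and 10.9%. Over the whole course 8 were higher and 1 lower, beside 27.5% and 20.4%, or 9 and 0 with the same sum per library. The 8 became 2 with a pseudocount of 5 FPKM, 2 with a filter of 5 FPKM and 3 where 1 FPKM was required in both libraries. That last condition left 1 lower, and 17.9% and 22.3% of all loci that met it were higher and lower. With the same sum, the larger pseudocount or the larger filter, the share of all loci was not taken. The same sum moved the median log2 difference of all loci over the whole course to 0.75. In the dry seed 5 of the GH3 loci reached 1 FPKM. LOC_Os01g55940 was at 1.21, 24.1 and 28.4 FPKM and LOC_Os07g40290 at 2.03, 20.2 and 34.8 FPKM, with log2 differences of 3.51 and 2.81 on the first day. LOC_Os01g12160, the locus called lower, was highest at 24 h, at 8.15, 18.5 and 3.44 FPKM. The locus higher at the second step, LOC_Os11g32520, singled out after its values were seen, was listed at 0 in the dry seed and was at 0.38 and 2.13 FPKM afterwards. The median log2 difference of this list was 1.07, 0.34 and 1.26 in the 3 comparisons, beside 0.06, 0.02 and 0.18 for all loci. Whether any list differs from the Aux/IAA loci was not tested.

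**Figure D4:**
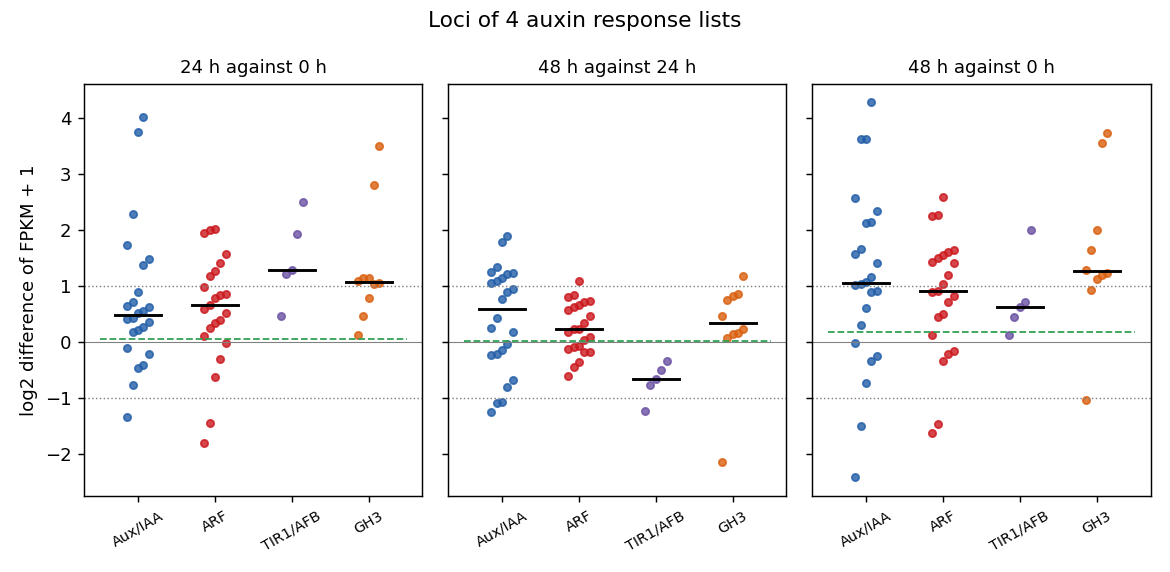
Log2 difference of FPKM + 1 for each locus of the Aux/IAA (24), ARF (23), TIR1/AFB (5) and GH3 (10) lists that reached 1 FPKM in some library, in the 3 comparisons. Points are loci, black bars are list medians, dotted lines mark 2-fold and the dashed line is the median of all 20915 loci. On the second day the 5 receptor loci lie below 0, with a median of -0.66, while the Aux/IAA loci range between -1.26 and 1.89.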

How the data were processed

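Poly(A)-enriched RNA of whole seeds was sequenced, 1 library per time point, each combining 3 biological replicates per the series design text. The authors deposited FPKM values per isoform, to 2 decimals. Per the file headers they come from isoform-level output. The submitters' processing notes name RSEM 1.1.11, edgeR 2.3.52 and FastQC, with no role for any. For the aligner, the build and the annotation release, nothing is given in the sources used here, so no coordinates or sequences are printed.

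Isoforms were summed per locus. FPKM depends on the library total, so a few abundant transcripts lower all others. Members with a value at or over 1 FPKM in some library are given with all 3 values, and from each other list the 3 loci with the largest difference between 48 h and 0 h among those reaching 5 FPKM. The members and lists were chosen with earlier results of these data known. Scripts ran under Python 3.11.15 (pandas 2.3.3, numpy 2.4.6, matplotlib 3.10.9). Alternatives covered pseudocount, filter, fold, isoform choice and scaling.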

Additional observations from a re-analysis of the deposited data

How the results depend on the processing

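No paired analysis was possible because only 1 pooled library stands for each time, and for the same reason no replicate could be left out. No called difference of a member changed direction under any alternative run. Of 504 alternative log2 differences of members, 435 stayed on their side of 2-fold, 37 fell under it (22 of them with a pseudocount of 5 FPKM) and 32 passed it. The counts of members at or over 1 FPKM and the family sum stayed within 1.5 times their value. Of 360 alternative counts and sums, 265 did so and 95 did not. Those 95 follow. The causes were not tested except where fewer loci or a stricter rule give a lower count.

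With a pseudocount of 0.1 FPKM, 2 members were lower on the first day, 8 had a dip (at least 2-fold under both other libraries) at 0 h in place of 5, and 1 had a dip at 24 h in place of 0. ARF loci higher were 11 on the first day and 2 on the second day, and GH3 loci higher 2 on the second day. With a pseudocount of 5 FPKM, 0 members were lower on the first day, 1 was higher and 0 lower on the second day, and 6 were higher over the whole course. Peaks were 0 at 0 h and 1 at 48 h, and dips 3 at 0 h and 0 at 48 h. ARF loci higher were then 2, 0 and 6 in the order first day, second day and whole course, as in later lists of 3 counts, GH3 loci higher 2, 0 and 2, and GH3 loci lower 0 over the whole course.

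A filter of 5 FPKM left 3 members higher on the second day, 7 over the whole course and 3 with a peak at 48 h. GH3 loci higher were 3, 0 and 2. At 4-fold, members higher were 3, 0 and 7 and members lower 0, 0 and 1, with 0 peaks at 0 h and 0 at 48 h, and 3 dips at 0 h and 0 at 48 h. ARF loci higher were 2, 0 and 3, ARF loci lower 0 on the first day and 0 over the whole course, and GH3 loci higher 2, 0 and 3 with 0 lower over the whole course. Of the receptors 1 was higher on the first day and 0 lower on the second day.

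With the most abundant isoform alone, 0 members were lower on the first day and 0 had a peak at 0 h. On the second day, ARF loci were 0 higher and 1 lower and GH3 loci 2 higher. The same sum per library gave 12 members higher and 0 lower on the first day and 1 lower over the whole course, with peaks for 0 at 0 h and 1 at 24 h, and dips for 10 at 0 h and 1 at 48 h. ARF loci were 12 higher and 1 lower on the first day, and 18 higher and 0 lower over the whole course, where receptors were 4 higher and GH3 loci 0 lower. Leaving the most abundant locus out of the sum gave the same values except 13 ARF loci higher on the first day and 0 members with a dip at 48 h. It also gave, on the second day, 1 member lower, 3 ARF and 4 GH3 loci higher and 0 receptors lower. The trimmed mean of log ratios and the median-of-ratios factors each gave 1 member with a dip at 48 h in place of 2 and 0 GH3 loci lower over the whole course.

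Requiring 1 FPKM in both libraries compared, a setting added after seeing the data, gave 3, 3 and 4 members higher. ARF loci higher were 4 on the first day and 7 over the whole course, and GH3 loci higher 4, 0 and 3.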
